A study of Mus musculus with 4 samples.

Results

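Cytosolic ribosomal protein genes were described in peritoneal exudate cells of wild-type and C/EBPε-deficient mice. C/EBPε, the product of Cebpe, is a transcription factor that granulocytes need for the last steps of their maturation. A probe set, the group of probes that reads 1 transcript, was taken as a member where the platform annotation gave exactly 1 gene symbol that begins with Rpl or Rps and a digit, or Rplp0, Rplp1, Rplp2 or Rpsa. Symbols of the Rps6k kinases, which phosphorylate ribosomal protein S6 and are no part of the ribosome, were left out. The rule found 46 genes of 6137 named genes, read by 60 probe sets. By symbol 31 of these genes were assigned to the large subunit and 15 to the small one. These counts include paralogs and the pseudogenes Rpl32-ps and Rps4l. Rplp1 had no probe set with a single symbol, and Cebpe was not analysed here, so the genotype labels were not checked against the targeted gene. The rule used names alone and no reading, though it was set with earlier results of these data known.

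The wild-type and deficient mice were on a 129/SvEv x NIH Black Swiss background and 6 to 8 weeks old, with 4 mice of each genotype. Both genotypes received 2 ml of 4% thioglycollate broth into the peritoneum, a sterile irritant that causes an influx of neutrophils and later of monocytes, and the cavity was washed out at 24 h. Per the labels, counts of 100 to 200 cells on cytospins gave about 60% neutrophils, 30% monocytes and between 7 and 10% lymphocytes for either genotype. Total RNA went onto 2 types of Affymetrix array, A and B, whose probe sets differ, with 1 array per genotype and type. The 4 arrays therefore hold no replicates, no test was possible, and no difference below has a replicate check. How the cells of the mice were combined is cut short in the labels, and the deficiency is named by the title alone for 1 array, the deficient one of type B. In such mixed cells, fewer cells of a type and less RNA per cell cannot be told apart.

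Ribosomal proteins coat the ribosomal RNAs of the large subunit, which forms peptide bonds, and of the small subunit, which decodes the mRNA. Their mRNAs are among the most abundant of most cells, and many carry a 5′ terminal oligopyrimidine tract, a start in C followed by a run of C and T through which growth signalling sets their translation. Most of these genes also have many processed pseudogenes, copies of its mRNA in the genome, so probes for 1 gene often match many loci. On these arrays the suffix _f marks a probe set whose probes are shared by a sequence family, and _s one shared by a few transcripts.

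The 5′ ends of the members below are shown because the tract is the sequence feature the family is known for. They are the 5 protein-coding members with the lowest and the 5 with the highest ratios among the 36 with an entry in the RefSeq promoter table (build GRCm38.p6). Each line holds the 15 bases before an annotated transcript start and the first 15 of the transcript, taking the start at the gene's outer end. The table's 1 start for Rpl7a lies 122 bases inside that gene's outer end. Capitals mark each C followed by at least 4 C or T that begins in the last 10 bases before the start or the first 10 after it.
Rps26: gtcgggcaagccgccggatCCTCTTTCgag (chr10:128626492-128626521, minus strand)
Rpl13a: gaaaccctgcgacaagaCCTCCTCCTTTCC (chr7:45128731-45128760, minus strand)
Rpl22: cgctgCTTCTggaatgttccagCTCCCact (chr4:152324421-152324450, plus strand)
Rps18: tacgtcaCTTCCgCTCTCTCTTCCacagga (chr17:33955651-33955680, minus strand)
Rpl12: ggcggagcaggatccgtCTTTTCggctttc (chr2:32961697-32961726, plus strand)
Rps28: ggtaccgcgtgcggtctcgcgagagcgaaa (chr17:33824548-33824577, minus strand)
Rplp2: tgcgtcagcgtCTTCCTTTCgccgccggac (chr7:141447636-141447665, plus strand)
Rpl7a: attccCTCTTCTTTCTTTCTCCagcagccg (chr2:26910792-26910821, plus strand)
Rpl41: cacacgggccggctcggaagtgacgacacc (chr10:128549154-128549183, minus strand)
Rpl10: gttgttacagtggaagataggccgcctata (chrX:74270801-74270830, plus strand)

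All 5 members with the lowest ratios shown, and 2 of the other 5, held such a run, but these examples were picked by their ratios. With each annotated start of a gene searched, 23 of these 36 members held such a run at 1 or more of them (63.9%), against 33.8% of 17492 protein-coding genes. On the opposite strand the shares were 19.4% of members and 38.3% of all genes. The run stood exactly at the annotated start in 5 members (13.9%) and in 2.67% of all genes. The letters CCGGAAG, on either strand of the 300 bases around the start, were found in 13 members (36.1%) and in 12.9% of all genes, and TATAAA in 16.7% and 14.8%. The 20 measured members with a run near the start had a median log2 ratio of -0.27, and the 11 without one -0.14. Their ranges overlapped, at -1.21 to 0.04 and -0.37 to 0.26. The part of probe set type and signal in this difference was not tested. These matches describe the letters of annotated starts, and an annotated start can differ from the one used in these cells.

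All 46 genes were matched to the RefSeq gene table, spread over 16 chromosomes with at most 7 on 1 of them, chromosome 7. Rpl32-ps and Rps4l were listed as pseudogenes and the other 44 genes as protein coding. Of the 60 probe sets 42 were on A and 18 on B, and 39 of them (65%) carried the suffix _f, against 6.26% of all probe sets on A and 22.6% on B. Above the floor defined below, 50 were measured on both arrays, 1 (Rpl7 on B) on the wild-type array alone, and 9 on neither.

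Most ribosomal protein genes read slightly lower in the deficient cells, and few differed by much. The direction depends on the scaling: with the arrays scaled to their bacterial control probe sets the median over genes was 0.059, with 15 of 39 below 0. It also rests on the _f probe sets, without which 6 of 11 genes lay below 0. A log2 ratio, deficient over wild-type, was formed where both readings lay above the floor, the median value of the array type, and 39 of the 46 genes had one. Their median was -0.21 (quartiles -0.36 and -0.12), or 1.16-fold lower, against 0.01 over the 3131 measured named genes. Of the 39 genes 33 lay below 0 and 6 above, where 49.0% of all measured named genes lay below 0. Rps26 alone was at least 2-fold lower, where 3.67% of all measured named genes were, and with Rpl32-ps, at least 2-fold higher, 2 of the 39 differed by 2-fold in either direction, where 6.68% of all did. Readings of repeat probe sets for 1 gene differed with a pooled SD of 0.38 in log2 ratio over 424 named genes, and of 0.23 over the 9 ribosomal protein genes with more than 1 measured probe set. The first of these, the larger, is taken below as the error of a single ratio. A difference called smaller than it can still exceed the second, as those of Rps12 (-0.27) and Rpl10 (0.26) do. Both compare different probe sets, and neither holds any spread between mice. The median rests on 1 pair of arrays per type.

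**Figure D1:**
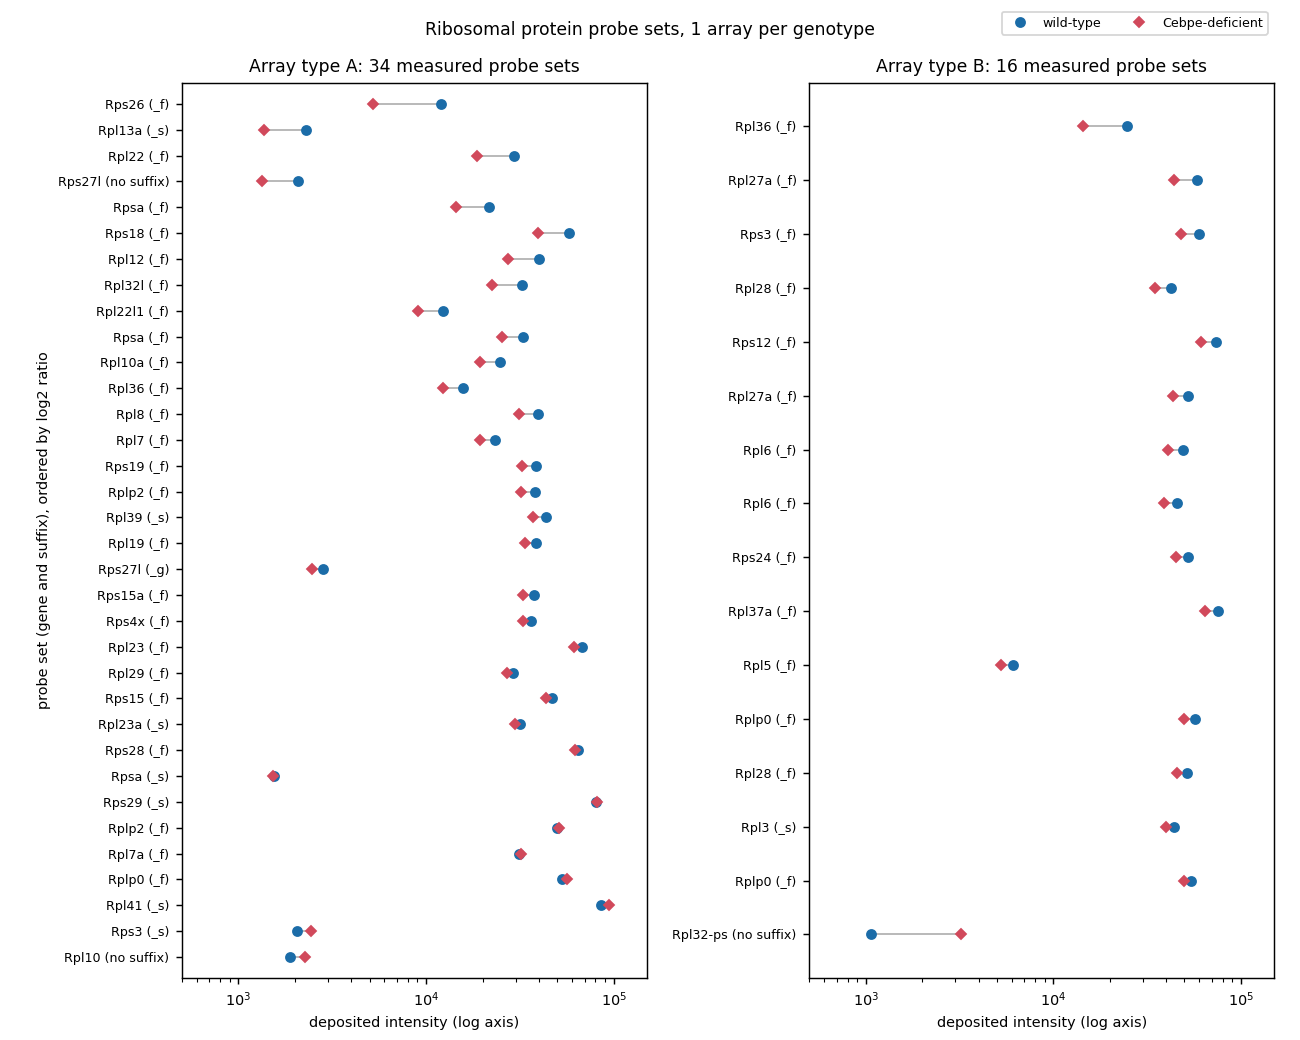
Deposited intensity (log axis) of the 50 measured ribosomal protein probe sets in wild-type (circles) and Cebpe-deficient cells (diamonds), 34 on array type A and 16 on B, ordered by log2 ratio. The deficient reading is the lower one for 42 of the 50, where 48.1% of all measured probe sets lie below 0, and the gap is widest for Rps26 on A and, in the other direction, for Rpl32-ps on B.

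Small subunit genes had a median of -0.22 over 13 measured genes, 12 of them below 0. The lowest ratio in the family was that of Rps26, a protein near the mRNA exit channel, whose probe set read 12075 in wild-type cells and 5230 in deficient ones, 2.31-fold lower (log2 -1.21). A second Rps26 probe set, left out because the annotation also gives the symbol Gm6654, read 40951 and 37646 (-0.12). The Rps26 value therefore depends on the probe set, and the 2-fold call was lost when probe sets with several ribosomal symbols were allowed.

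Rps18, a protein of the subunit's head, followed with 57712 in wild-type and 39557 in deficient cells, 1.46-fold lower (-0.55). Rps12 read 73644 and 61191 (-0.27), and Rps19, the gene most often mutated in Diamond-Blackfan anaemia, read 38732 and 32274 (-0.26). Rps24 (52433 and 45073), Rps15a, Rps4x and Rps15 lay between -0.22 and -0.10. Apart from Rps18, each of these differences was smaller than the error of a single ratio.

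At the upper end of the small subunit, Rps28 read 64920 and 62473 (-0.06) and Rps29 read 80447 and 81360 (0.02). Rps27l, a p53-responsive paralog of Rps27, was dim and its probe sets differed, with 2824 and 2460 (-0.20) for one and 2069 and 1340 (-0.63) for the other. Rps7 (175 and 258) and the pseudogene Rps4l (-3983 and -4514) were at or below the floor in both genotypes and gave no ratio.

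Large subunit genes had a median of -0.21 over 26 measured genes, 21 of them below 0. Rpl36 was lowest, at 24621 in wild-type and 14354 in deficient cells on B, 1.71-fold lower (-0.78), while its probe set on A read 15715 and 12339 (-0.35). Rpl13a, also known from an interferon-γ-dependent complex that silences mRNAs in monocytes, read 2280 and 1367 (-0.74), close to the floor of 1036.5 on A. Rpl22, which the T cell lineage needs more than other tissues do, read 29533 and 18778, 1.57-fold lower (-0.65).

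Its paralog Rpl22l1 read 12271 and 9072 (-0.44), so both genes of the pair were lower on the deficient array. Rpl12, a protein at the base of the stalk, read 39814 and 27306 (-0.54), and Rpl32l 32467 and 22442 (-0.53). Rpl27a, Rpl28 and Rpl6 each had a pair of _f probe sets on B, and all 6 of those read lower, between -0.41 and -0.18. Of all _f probe sets on B with a mean signal of at least 20000, as these had, 80.1% lay below 0. Rpl5, which carries 5S RNA and can bind Mdm2, read 6072 and 5288 (-0.20), and Rpl3, a protein of the peptidyl transferase centre, read 43991 and 39967 (-0.14).

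At the upper end, Rpl7a read 31322 and 32252 (0.04). Rpl41, a very short basic peptide, read 85996 and 94144 (0.13). Rpl10, which joins at a late step of subunit maturation, read 1879 and 2252 (0.26), and a probe set that also names Gm5621 read 60121 and 61082 (0.02). Each of these differences was smaller than the error of a single ratio. The other 9 measured genes of the large subunit (Rpl10a, Rpl8, Rpl7, Rpl39, Rpl37a, Rpl19, Rpl23, Rpl29 and Rpl23a) lay between -0.35 and -0.08.

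The highest ratio was that of Rpl32-ps, a pseudogene on chromosome 3, with 1060 in wild-type and 3224 in deficient cells, 3.04-fold higher (1.61). Its wild-type reading lay near the floor of B, 690.1, and the single-symbol probe set of Rpl32 itself was below it (19 and -196). Rpl39l (-1290 and -1531), Rpl27 (252 and 237), Rpl34 (490 and 541) and Rpl4 (566 and 486) were also below the floor in both genotypes. A probe set below the floor gives no reading of the gene, and other probe sets with several symbols name some of these genes too.

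The stalk proteins recruit elongation factors to the large subunit. Rplp0, on which the stalk stands, read 56818 and 49818 (-0.19) and 54483 and 49909 (-0.13) by its probe sets on B, but 53194 and 56607 (0.09) on A. Rplp2 read 49931 and 51236 (0.04) by one _f probe set on A and 38153 and 32087 (-0.25) by the other. A probe set shared by Rplp1 and Gm13777 read 69715 and 68984 (-0.02). The readings of the stalk genes thus differed by less than the error of a single ratio, and for Rplp0 and Rplp2 the sign differed between probe sets. Rpsa, a small subunit protein also known as the laminin receptor, read 32745 and 25323 (-0.37) and 21521 and 14410 (-0.58) by _f probe sets, and 1556 and 1527 (-0.03) by an _s probe set.

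The medians of the large and the small subunit genes differed by 0.01. On A the probe set medians were -0.25 for the large and -0.20 for the small subunit, on B -0.21 and -0.27, so the order turned between array types. Among _f probe sets, 23 of 26 of the large subunit and all 12 of the small subunit read lower in deficient cells, with medians of -0.25 and -0.27. Of all measured _f probe sets on the arrays 59.6% lay below 0. The comparison of the subunits has no test either, since each array type holds 1 pair of arrays.

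**Figure D2:**
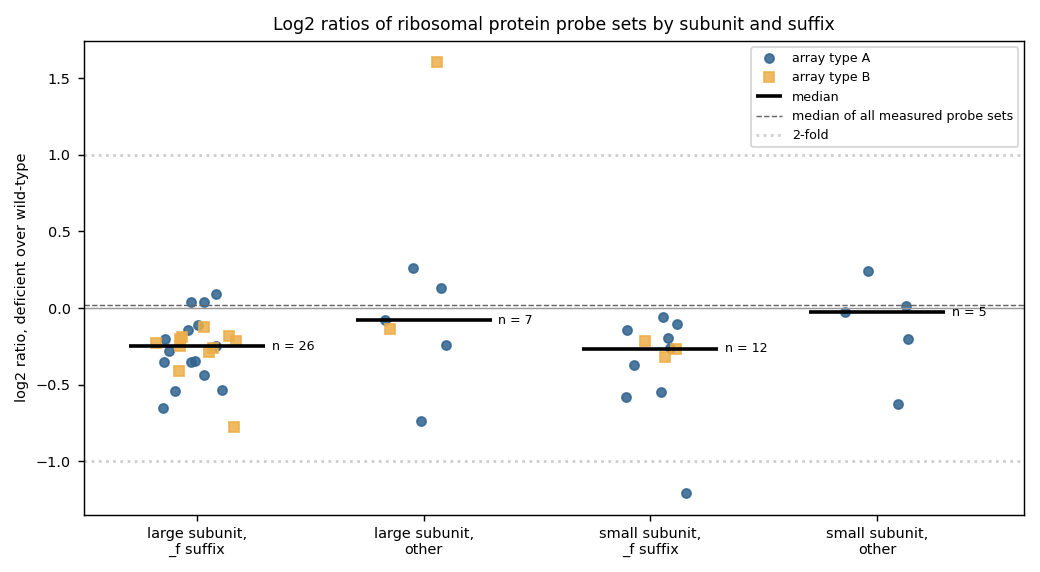
Log2 ratio, deficient over wild-type, of the measured ribosomal protein probe sets by subunit and by suffix; circles are array type A, squares B, thick bars medians, the dashed line the median of all measured probe sets and dotted lines 2-fold. The _f groups of both subunits centre at -0.25 and -0.27, below the medians of the other probe sets.

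The suffix separated the readings more than the subunit did. The 38 measured _f probe sets had a median of -0.26, 35 of them below 0, and the 12 others a median of -0.05, 7 below 0, a difference of -0.20. Over all measured probe sets of the arrays, 59.6% of those with _f and 45.3% of those without it lay below 0. On A the medians were -0.27 for 24 _f probe sets (21 below 0, against 56.4% of all _f probe sets on A) and -0.05 for 10 others (6 below 0, against 47.3%). On B all 14 _f probe sets lay below 0 with a median of -0.24, against 60.7% of all _f probe sets there, and only Rpl3 (-0.14) and Rpl32-ps (1.61) had a measured probe set without it.

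Outside the family, _f probe sets also read lower than the rest. On A the median of non-ribosomal _f probe sets was -0.03, against 0.03 for those without the suffix, a gap of -0.06 where the ribosomal gap was -0.22. On B the same medians were -0.11 and 0.09, a gap of -0.20. Signal moves with the suffix, since the ribosomal _f probe sets are mostly bright. Ribosomal and other _f probe sets were therefore compared at a mean signal of at least 20000. Without the suffix only 4 ribosomal probe sets on A (median -0.03) and 1 on B (-0.14) were that bright, too few for a comparison by suffix. On A the 20 bright ribosomal _f probe sets had a median of -0.23, with 17 below 0, and the 84 other bright _f probe sets one of 0.01, with 47.6% below 0. On B the 12 bright ribosomal _f probe sets had a median of -0.24, all below 0, and the 164 other bright _f probe sets one of -0.21, with 78.7% below 0. The median of bright ribosomal _f probe sets thus lay below that of other bright _f probe sets by 0.24 on A and by 0.03 on B.

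**Figure D3:**
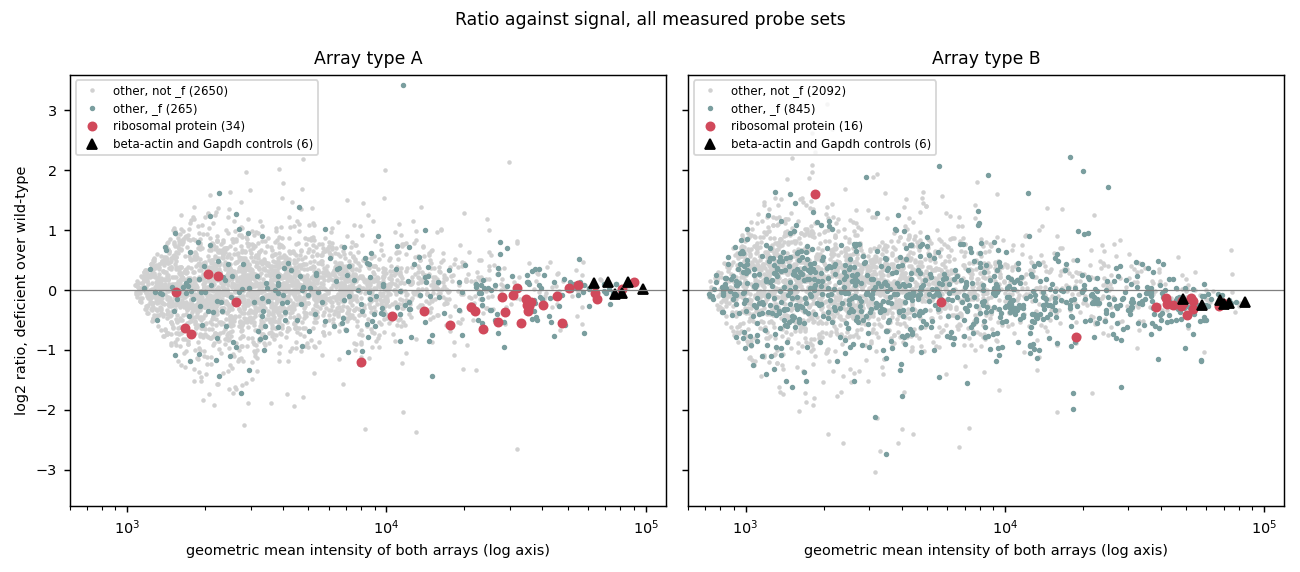
Log2 ratio, deficient over wild-type, against the geometric mean intensity of both arrays (log axis) for all measured probe sets of array types A and B, with ribosomal protein probe sets in red, other _f probe sets in teal, the remaining ones in grey and the beta-actin and Gapdh controls as triangles. On A the median of the ribosomal probe sets (-0.22) lies below controls that average 0.05. On B their median (-0.22) lies level with controls that average -0.20.

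The same split appeared against the beta-actin and Gapdh control probe sets, 6 per array type, which read housekeeping transcripts. These averaged 0.05 on A and -0.20 on B, so the ribosomal median (-0.22 on either type) was lower than the controls by 0.27 on A and by 0.02 on B. On B the ribosomal medians therefore lay within 0.03 of the median of other bright _f probe sets and of the mean of the controls. The 115 other bright probe sets on B without the suffix had a median of -0.01, with 50.4% below 0. The part of the suffix in the ribosomal values on B was not tested. The 3′ probe set for 18S ribosomal RNA, the RNA of the small subunit, read 2664 and 1565 on A (-0.77) and 3447 and 2522 on B (-0.45). The 5′ probe set for 18S read 249 and -359 on A and 989 and 156 on B, and the middle one read below 0 on every array. Neither gave a ratio, so the 18S values rest on the 3′ probe set alone and do not measure the amount of ribosomal RNA. The ratio of 3′ to 5′ readings, a sign of RNA integrity, was 0.801 and 0.758 for Gapdh on A in wild-type and deficient cells, and 0.841 and 0.824 on B. For beta-actin it was 0.893 and 0.881 on A, and 0.823 and 0.879 on B.

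Readings near the top of the scale can flatten differences. The highest reading of any probe set was 98260 on A. The 4 ribosomal probe sets on A with a mean signal of at least 60000 (Rpl23, Rps28, Rps29 and Rpl41) had a median of -0.02, and the 20 between 20000 and 60000 one of -0.25. On B the 2 at or above 60000 had a median of -0.24 and the 11 between these limits one of -0.23. Without the probe sets of at least 60000 the median over genes was -0.24. Across the 34 measured probe sets on A the log2 ratio correlated with mean signal at a Spearman rho of 0.36, and across the 16 on B at -0.12. These describe probe sets of 1 array pair, which share scaling and background. Saturation itself was not tested.

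Summed over all ribosomal protein probe sets, with readings below 0 counted as 0, the deficient array gave 0.883 of the wild-type reading on A and 0.842 on B. As a share of the signal of the whole array, the family went from 5.0 to 4.42% on A and from 3.11 to 2.73% on B. Bright probe sets of any gene (mean signal of at least 20000) had a median log2 ratio of 0.02 on A, with 48.1% below 0. On B their median was -0.17, with 68.5% below 0.

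Probe sets for the same gene showed how far a single value can be trusted. Among the 9 genes with more than 1 measured probe set the log2 ratios of a gene spanned 0.02 for Rpl6, 0.11 for Rpl28 and 0.15 for Rpl27a. They spanned 0.28 for Rplp0, 0.29 for Rplp2, 0.43 for Rpl36 and Rps27l, 0.55 for Rpsa and 0.57 for Rps3. Rps3, a protein of the mRNA entry channel, was lower by its _f probe set on B (59639 and 47683, -0.32) and higher by a dim _s probe set on A (2060 and 2439, 0.24). The genes with a measured _f probe set and another one were Rps3 and Rpsa, and in both the _f probe set gave the lower ratio. With _f probe sets alone the pooled SD was 0.16 over 7 genes.

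**Figure D4:**
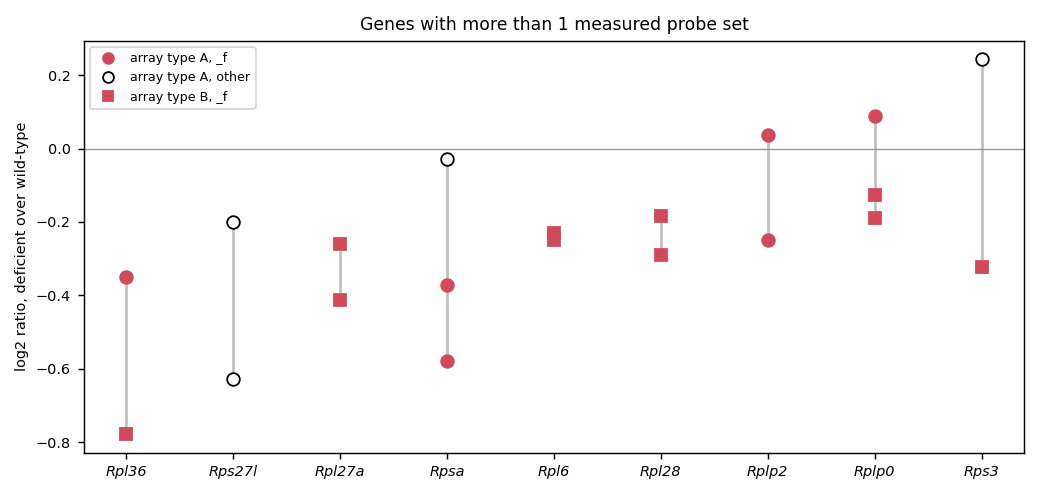
Log2 ratio, deficient over wild-type, of each measured probe set for the 9 ribosomal protein genes that have more than 1; filled symbols carry the suffix _f, open ones do not, and circles and squares are array types A and B. Rplp0, Rplp2 and Rps3 have probe sets on both sides of 0, and the span reaches 0.57 for Rps3.

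Just outside the rule stood 24 probe sets that name a ribosomal protein gene beside other symbols, most of them predicted genes. Of these 22 were measured, 18 lay below 0, and their median was -0.16. Their ratios ran from -0.77, for a probe set of Rpl32l and Rpl32 (57681 and 33767), to 0.35, for one that includes Rps13 (34349 and 43709). The kinase Rps6ka3, left out by the rule, read 3545 and 2724 (-0.38), and Rps6kc1, likewise left out, read 1988 and 810, below the floor in deficient cells, with a log2 bound of -0.94.

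Among genes that act with the ribosome, the medians lay nearer to 0 and the quartiles further apart. The full range of the ribosomal protein list, -1.21 to 1.61, was the widest only through the pseudogene Rpl32-ps. Its next highest member was Rpl10 at 0.26, while the translation factors ran from -1.33 to 0.84. Of the translation initiation and elongation factors, 27 of 38 listed genes were measured, 14 lay below 0 and the median was -0.13 (quartiles -0.29 and 0.08). Eif5a, which helps the ribosome through difficult peptide bonds, read 21250 and 8423, 2.52-fold lower (-1.33), and was the only factor past 2-fold. Eif4a1, the helicase of the cap-binding complex, read 37634 and 21167 (-0.83), while Eef1a1, which delivers aminoacyl-tRNA and has a terminal oligopyrimidine mRNA of its own, read 74059 and 61757 (-0.26). Eif3k read 3912 and 7007 (0.84). Fau, which encodes a small subunit protein fused to a ubiquitin-like one, was outside the symbol rule and read 32996 and 42259 (0.36).

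Of the mitochondrial ribosomal proteins, none of whose probe sets carried _f, 19 of 35 were measured, 12 lay below 0 and the median was -0.06 (quartiles -0.28 and 0.12). Only Mrpl30 (5082 and 1987, -1.36) passed 2-fold. Of the ribosome biogenesis genes 21 of 52 were measured, 13 lay below 0 and the median was -0.12 (quartiles -0.44 and 0.27). Grwd1, a large subunit assembly factor, read 6344 in wild-type cells and 330 in deficient ones, at least 6.12-fold lower. Gar1, a protein of the box H/ACA particles that guide rRNA pseudouridylation, read 3734 and 305, at least 5.41-fold lower. Both bounds were taken against the floor. Ubtf, which activates rRNA gene transcription, read 2692 and 5232 (0.96). These lists were chosen with earlier results known and are given as counts. Among all measured named genes 49.0% lay below 0 and 3.67% were at least 2-fold lower.

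**Figure D5:**
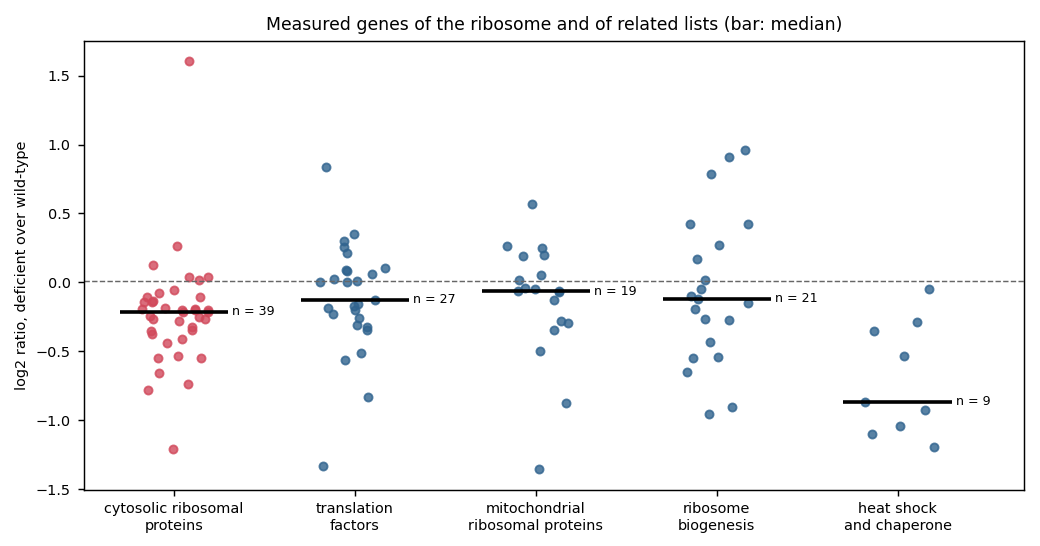
Log2 ratio, deficient over wild-type, of each measured gene in 5 lists, with a thick bar at each median and a dashed line at the median of all measured named genes. The 39 cytosolic ribosomal protein genes have a median of -0.21 and quartiles closer together than those of the translation factors, mitochondrial ribosomal proteins or ribosome biogenesis genes, and the 9 heat shock genes centre at -0.87.

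Other gene groups, likewise listed with earlier results known, also differed between the arrays. Of all measured named genes 49.0% lay below 0 and 3.67% were at least 2-fold lower. Heat shock and chaperone genes lay below 0 in 9 of 9 measured cases with a median of -0.87, led by Hsp90aa1 (14038 and 6145, -1.19), Hspe1 and Hsph1. Cell cycle genes lay below 0 in 10 of 11 measured cases with a median of -1.02, and 7 of them were at least 2-fold lower (Ccne1, Mki67, Mcm6, Mcm7, Cdk1, Pcna and Ccna2), with Mki67 at 5043 and 1751 (-1.53). Counting readings below 0 as 0, the cell cycle probe sets summed to 29749 and 14109 on A and to 22875 and 10401 on B. The part of this group in the ribosomal values was not tested.

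Markers of the labelled cells were read in both genotypes, with readings below 0 counted as 0 in the sums. Of all measured named genes 49.0% lay below 0 and 3.67% were at least 2-fold lower. The neutrophil list summed to 137933 and 106876 on A and to 50812 and 34656 on B. Of its 9 measured genes 7 lay below 0, with a median of -0.62. Il1r2, Ngp, Ly6g and Csf3r were at least 2-fold lower. S100a9 (-0.24) and S100a8 (-0.08) lay nearer to 0, while Elane (0.11) and Mpo (0.36) read higher in deficient cells. The monocyte and macrophage list summed to 183792 and 158708 on A and to 303921 and 250437 on B. Of its 11 measured genes 7 lay below 0, with a median of -0.52. Mrc1 and Cd14 were at least 2-fold lower, while Ccr2 (0.97), Csf1r (0.84), Mpeg1 (0.67) and Cd68 (0.29) read higher in deficient cells. B cell genes summed to 49354 and 42887 on A and to 32329 and 23904 on B, with 3 of 5 below 0. Of 6 T and NK cell genes none was above the floor on both arrays. Cd3e read 1901 and 921, above it in wild-type cells alone and at least 1.83-fold lower, Cd3g read 167 and -32, and Cd3d, Cd4, Cd8a and Thy1 read below 0 on both arrays. In the erythroid list 2 of 3 measured genes lay below 0, with a median of -0.43 and Hbb-b2 at least 2-fold lower. Hba-a1 read 49059 and 50393 (0.04), and Alas2 read 4774 and 539, at least 6.92-fold lower against the floor. In the mast cell list 2 of 3 measured genes lay below 0 (median -0.14). The part of cell composition in the ribosomal values was not tested.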

How the data were processed

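The authors deposited 1 intensity per probe set and array, on a linear scale, and 20.7% to 29.3% of an array's intensities are below 0. How the scanner data were corrected and scaled is not stated in the sources used here. Gene symbols came from the platform annotation: 7542 probe sets had 1 symbol, 224 several and 5303 none, among 6529 probe sets on A and 6540 on B without controls. Within an array type the arrays were brought to 1 common trimmed mean (2% off each end), by factors between 0.9998 and 1.0002. The median of both arrays served as the floor. A probe set above it on both arrays gave a log2 ratio, above it on 1 a bound, otherwise nothing. Differences of at least 2-fold were counted. A gene was read by the measured probe set that was brightest in units of its floor.

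Named were genes past 2-fold, the 6 highest and 6 lowest ratios, genes with _f and other measured probe sets, genes below the floor, the stalk proteins and Rpsa, and from each pathway list the genes past 2-fold with at most 3 others. Further members were named for their role or as further examples, after their values were seen. The members, lists and rule were chosen with earlier results of these data known. Over all probe sets the arrays correlated at a Spearman rho of 0.929 on A and 0.921 on B. The procedure was tested on simulated data. Alternatives covered scaling, floor, fold, array type and suffix, and 4 were added after seeing the data. RefSeq promoter windows (GRCm38.p6) gave the sequences. Python 3.11.15, numpy 2.4.6, pandas 2.3.3, statsmodels 0.14.6 and matplotlib 3.10.9 were used.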

Additional observations from a re-analysis of the deposited data

How the results depend on the processing

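With 1 array per genotype and type, the number of arrays limits the precision, and none of these values has a test. Scaling to the bacterial control probe sets turned the sign: the median over genes was 0.059 with 15 genes below 0, 0.075 for the large and 0.015 for the small subunit, 0.032 for _f and 0.19 for other probe sets. That scaling moved the median of all named genes to 0.24, and 34 of the 39 ribosomal genes lay below it. Relative to the median of all named genes the ribosomal median stood between -0.31 and -0.14 under all 6 scalings. On B alone, quantile and loess scaling left -0.05 and -0.07. Equal medians gave -0.10 for large minus small subunit, -0.36 for _f and -0.37 for _f minus other. Array type B alone gave 11 of 12 genes below 0, 0.73 for other probe sets and -0.97 for _f minus other. Without _f probe sets 11 genes were left, 6 below 0, with medians of -0.028 over genes, -0.079 (large) and -0.0061 (small). Without any suffixed probe set 3 genes were left, 1 below 0, with medians of 0.26 over genes, 0.93 for 2 large subunit genes, -0.63 for 1 small subunit gene and 1.56 for their difference, since only Rpl32-ps, Rpl10 and Rps27l enter. The count of genes past 2-fold was 1 in place of 2 with the floor at the 70th percentile, on A alone, on B alone, without _f or suffixed probe sets, without Rpl32-ps, and with probe sets of several ribosomal symbols. At 1.5-fold the count was 5. Where not named, the cause was not tested. No paired analysis was possible because each array type holds 1 array per genotype.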
